A study of Homo sapiens with 2 samples.

Results

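Chromosome arm 14q was described here from the DEK peaks that lie on chromosome 14 and start at or beyond 18 Mb, the long arm of a chromosome whose short arm holds few annotated genes. DNA bound by DEK had been precipitated from 786-O, an established line of human renal carcinoma, and sequenced in 2 libraries of 1 group that the labels call a negative control of wild-type genotype, in an experiment named for Cas9. Whether that control means the cells or the pull-down is not said in the labels, nor that the replicates came from separate cultures, so differences between them may be only technical spread. The arm held 275 of the 19128 peaks deposited for replicate 1 and 357 of the 24580 deposited for replicate 2. Where a peak of each replicate covered at least 1 bp in common they were taken as 1 shared region, and the arm had 170 of the 12590 on chromosomes 1 to 22 and X. Positions are those of GRCh38 (hg38), the build of the peak lists. The last peaks below 18 Mb were at chr14:17292727-17293052 in replicate 1 (fold enrichment 9.22) and chr14:17778507-17778746 in replicate 2 (4.53), and the first peaks of the arm were at chr14:21084955-21085367 (4.22) and chr14:20343281-20343583 (3.88). With 1 group and no input or DEK-edited sample among the libraries analysed, no comparison between conditions exists, and the arm was set beside the other chromosomes without a test.

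DEK is an abundant nuclear protein that binds DNA and histones and takes part in the folding and modification of chromatin, in histone deposition and in transcription. The long arm of chromosome 14 is often lost in clear cell renal carcinoma, and HIF1A, which encodes the oxygen-regulated subunit of the hypoxia-inducible transcription factor HIF-1, lies on it. Cells of the 786-O line have no working VHL protein, the ubiquitin ligase subunit that marks this factor for destruction, and are known as a line that makes the related factor encoded by EPAS1 and little or no HIF1A protein. Peaks show where DEK was enriched on DNA and do not measure expression, so the identity of the line was not checked against marker genes.

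Several of the shared regions at gene starts overlapped promoter windows with repeated copies of CCAAT, the box that the factor NF-Y binds. The starts of 5 occupied genes, all of them with CCAAT, are printed to show how the boxes are set, beside that of HIF1A, which had no peak. The overlapped windows of DCAF11 and TOGARAM1 held no CCAAT and are not printed. Each line gives the 250 bases before the annotated start, 5′ to 3′ on the strand of the gene, from the RefSeq promoter table of GRCh38.p14. Capitals mark CCAAT or GGGCGG (the GC box that Sp1 binds) on either strand, so that ATTGG and CCGCCC are the same motifs read from the other strand, and the hypoxia core ACGTG was searched too and was in none of the 6.
ARID4A, chr14:58298305-58298554, plus strand: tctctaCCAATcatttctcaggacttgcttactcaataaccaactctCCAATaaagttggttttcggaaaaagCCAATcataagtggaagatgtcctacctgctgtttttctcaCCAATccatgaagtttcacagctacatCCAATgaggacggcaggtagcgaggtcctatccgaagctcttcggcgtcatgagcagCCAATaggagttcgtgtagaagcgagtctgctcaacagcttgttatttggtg
GLRX5, chr14:95534800-95535049, plus strand: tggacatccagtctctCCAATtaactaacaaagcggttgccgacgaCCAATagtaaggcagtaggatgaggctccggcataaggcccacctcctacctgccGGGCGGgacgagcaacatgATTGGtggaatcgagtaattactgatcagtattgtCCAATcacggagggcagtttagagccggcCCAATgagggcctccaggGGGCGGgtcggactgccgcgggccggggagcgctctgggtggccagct
ALDH6A1, chr14:74084454-74084703, minus strand: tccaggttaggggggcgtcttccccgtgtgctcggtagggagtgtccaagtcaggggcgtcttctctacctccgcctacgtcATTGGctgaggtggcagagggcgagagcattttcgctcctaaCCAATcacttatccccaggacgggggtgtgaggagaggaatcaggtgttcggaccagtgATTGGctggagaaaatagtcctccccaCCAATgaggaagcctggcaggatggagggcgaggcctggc
PRMT5, chr14:22929377-22929626, minus strand: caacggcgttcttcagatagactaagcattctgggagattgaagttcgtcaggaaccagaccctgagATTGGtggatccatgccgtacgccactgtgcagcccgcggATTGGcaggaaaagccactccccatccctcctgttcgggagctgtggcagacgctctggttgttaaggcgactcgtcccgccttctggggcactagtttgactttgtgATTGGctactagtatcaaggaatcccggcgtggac
RBM25, chr14:73058284-73058533, plus strand: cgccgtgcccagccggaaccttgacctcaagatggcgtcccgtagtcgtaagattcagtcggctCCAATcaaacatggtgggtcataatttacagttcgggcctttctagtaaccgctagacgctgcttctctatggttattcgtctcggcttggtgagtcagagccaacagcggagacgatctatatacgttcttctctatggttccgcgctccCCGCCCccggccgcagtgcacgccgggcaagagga
HIF1A, chr14:61695263-61695512, plus strand: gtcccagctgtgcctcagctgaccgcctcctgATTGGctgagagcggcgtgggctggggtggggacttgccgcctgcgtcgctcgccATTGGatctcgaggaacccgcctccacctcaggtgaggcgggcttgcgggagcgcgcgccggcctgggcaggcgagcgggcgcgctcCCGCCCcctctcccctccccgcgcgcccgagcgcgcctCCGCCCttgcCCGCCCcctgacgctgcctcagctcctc

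The CCAAT box occurred 6 times before ARID4A, 5 times before GLRX5, 4 times before ALDH6A1, 3 times before PRMT5 and once before RBM25. HIF1A had 2 CCAAT boxes and 3 GC boxes in 250 bases with a GC content of 75.6%, against 45.2% at ARID4A. ARID4A encodes a chromatin protein that binds the retinoblastoma protein. Its shared region covered 246 of the 250 bases, with summits 122 bases before the start in replicate 1 and 270 bases before it in replicate 2. At PRMT5, the enzyme that puts symmetric dimethylation on arginines of histones and splicing proteins, 225 bases were covered and the summits lay 178 and 168 bases before the start. RBM25, a splicing regulator, had 234 bases covered with summits 114 and 95 bases before its start. GLRX5, a mitochondrial protein of iron-sulfur cluster assembly, and ALDH6A1, a mitochondrial enzyme of valine breakdown, had 142 and 140 bases covered, with summits further upstream. The region itself held all 6 copies at ARID4A, all 3 at PRMT5 and the 1 at RBM25, but 3 of 5 at GLRX5 and 2 of 4 at ALDH6A1.

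Over all protein-coding genes of the table, 300-base windows (250 bases before to 50 after each annotated start) were searched for the same motifs. A shared region overlapped 13 of 742 windows on the arm, belonging to 11 genes and resting on 10 distinct regions. Of these 13 windows 11 held CCAAT (84.6%, 95% Wilson interval 57.8 to 95.7), against 34.2% of the 729 other windows of the arm and 34.6% of all 22132 windows. Outside 14q, 522 of 791 overlapped windows held it (65.99%, 62.6 to 69.2), against 33.4% of those not overlapped. Windows with at least 3 copies numbered 6 of the 13 on the arm, each of another gene: TEDC1 with 7 copies, ARID4A, GLRX5, ALDH6A1, PRMT5 and RPS6KA5. Copies were counted over the whole window, and under the region itself TEDC1 had 7 and RPS6KA5 1 of 3. Of the other windows of the arm 3.02% had at least 3 copies. The same count was 25.2% of overlapped and 2.78% of other windows outside the arm. GGGCGG was in 10 of the 13 windows (76.9%, against 56.3% of all windows) and ACGTG in 2, those of LIN52 and TOGARAM1 (23.1% of all). TATAAA was in 0 (9.46% of all) and the AP-1 element TGACTCA in 1 (4.01% of all). The median GC content was 58.0% in the 13 windows and 62.3% in the others of the arm. Windows of 1 gene can overlap, 3 of the 13 belong to SDR39U1, and a match is a description of letters, not of a bound factor.

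Along the arm the regions were sparse and uneven. From 18 Mb to the last annotated gene the arm spans 88.9 Mb and had 1.91 shared regions per Mb, with 3.09 peaks per Mb in replicate 1 and 4.02 in replicate 2. Of 89 windows of 1 Mb, 33 held no shared region (37.1%), and 21 held no peak of either replicate. The 12 windows with at least 4 shared regions held 75 of the 170 (44.1%). Such windows made up 13.5% of the arm and 40.9% of 2805 gene-holding windows on the other chromosomes, where 26.0% had none. The peak counts of the replicates followed each other over the 89 windows (Spearman coefficient 0.863), and shared regions followed the number of protein-coding genes less closely (0.583). Both coefficients are descriptions over windows of the same 2 libraries. Windows with no shared region had a median of 1 protein-coding gene and those with at least 4 a median of 12.

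**Figure D1:**
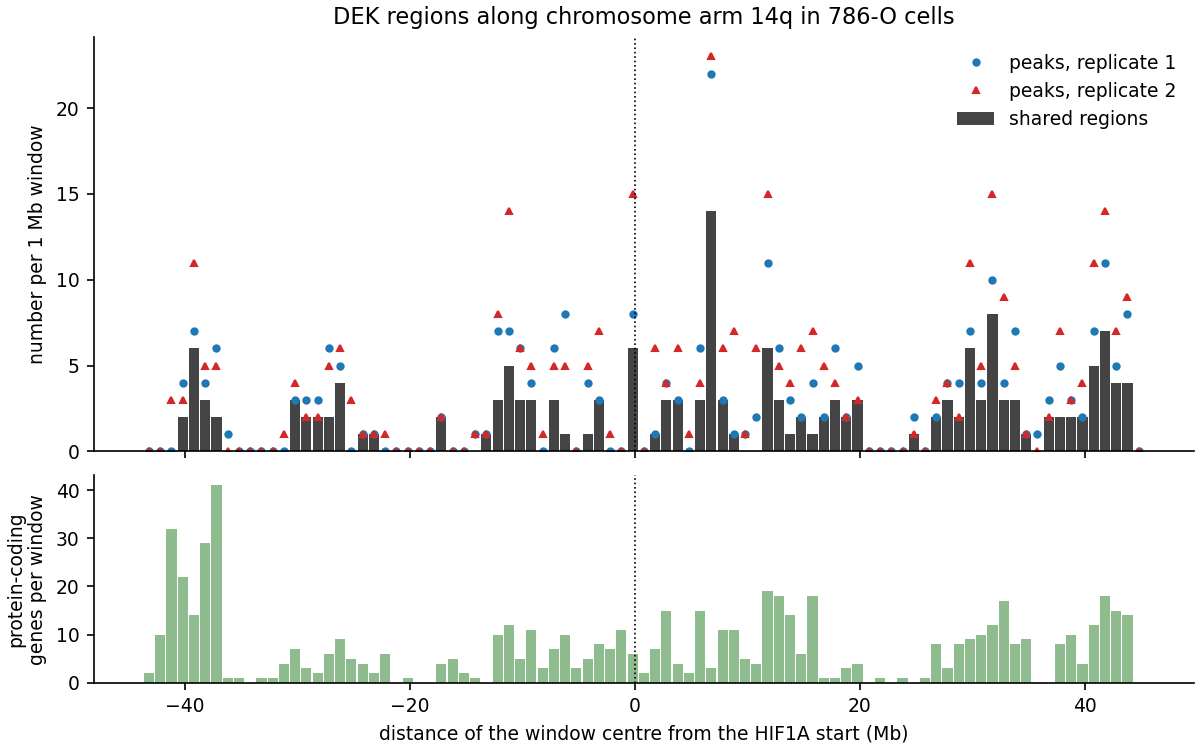
Upper panel: shared regions (bars) and peaks of each replicate (points) per 1 Mb window of 14q; lower panel: protein-coding genes per window; the horizontal axis is the distance of the window centre from the HIF1A start in Mb. The window with 14 shared regions stands 6.80 Mb beyond HIF1A, and the window with HIF1A itself holds 6.

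The densest window, 68 to 69 Mb, held 14 shared regions, 22 peaks of replicate 1 and 23 of replicate 2, but had only 3 protein-coding genes: RAD51B, ZFP36L1 and ACTN1. On the other chromosomes 6.70% of windows held as many or more. The next were 93 to 94 Mb with 8 shared regions (in ITPK1, BTBD7 and ASB2) and 103 to 104 Mb with 7 (at TNFAIP2, MARK3, BAG5 and KLC1 among others). Windows with 6 were 22 to 23 Mb with PRMT5, 61 to 62 Mb with PRKCH and HIF1A, 73 to 74 Mb with RBM25 and MIDEAS, and 91 to 92 Mb with DGLUCY. The longest stretch with no shared region, chr14:38079738-44700110, ran over 6.62 Mb with 10 protein-coding genes, among them the neuronal adhesion gene LRFN5 and the splicing factor gene PNN, and held 0 peaks of replicate 1 and 1 of replicate 2. The next, of 6.59 Mb, chr14:24442988-31033914, held 12 protein-coding genes, among them the neuronal RNA-binding protein gene NOVA1 and the granzyme genes GZMB and GZMH. The stretch after that, of 5.40 Mb, chr14:81401826-86799138, had only 3 protein-coding genes, SEL1L, LOC124903401 and FLRT2.

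Set beside the other chromosomes, 14q was poor in regions for its number of genes. It had 6.78 protein-coding genes per Mb of windows that hold a gene, near the 6.90 of all chromosomes, but 1.91 shared regions per Mb against 4.20, which is 45.5% of the level over all. Per protein-coding gene this was 0.282 shared regions, against 0.608 over all chromosomes, 0.595 on 13q and 0.503 on 15q, the long arms of the other chromosomes of like build and size. The 13q arm had 2.06 regions per Mb with 3.46 genes per Mb, and 15q had 3.70 with 7.34. Whole chromosome 14 ranked 2 from the lowest of 23 in shared regions per Mb, above X and below 13, and 14 from the lowest in genes per Mb. The low place held in each replicate alone, where chromosome 14 also ranked 2 from the lowest in peaks per Mb.

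The background of the peaks moved with this count. Background is the number of fragments expected at the summit from its surroundings, solved from the authors' fold enrichment and −log10 p, and pileup is the number found there. The median background on the arm was 2.55 fragments in replicate 1 and 2.69 in replicate 2, against 3.92 and 4.04 outside it, and chromosome 14 was again 2 from the lowest in both replicates. The lowest background of a list applied to 16.0% of the arm's peaks in replicate 1 and 20.2% in replicate 2, against 3.63% and 5.41% elsewhere. The median pileup was 15 on the arm and 19 outside it in both replicates. The median fold enrichment of the called peaks was higher on the arm, 4.39 against 3.98 in replicate 1 and 4.17 against 3.88 in replicate 2. Peaks of at least 5-fold made up 24.0% and 16.8% of the arm's peaks and 14.2% and 12.8% of the others. Over a lower background a peak needs a higher fold to reach the same −log10 p. The higher fold among called peaks is therefore not read as stronger enrichment on the arm. Over the 23 chromosomes, shared regions per Mb rose with the median background (Spearman coefficient 0.879) and with genes per Mb (0.718), as descriptions over points that share both libraries. The part of the background in the low count of regions was not tested.

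The size of the gap depended on which peaks were compared. Among peaks of at least 4-fold in both lists the arm held 91 shared regions and 64.0% of the density over all chromosomes, and among those of at least 5-fold 23 regions and 78.9%. At 5-fold the arm had 0.258 regions per Mb of gene-holding windows, above 13q with 0.144 and 15q with 0.220 and below the 0.328 of all chromosomes. Whole chromosome 14 then ranked 10 from the lowest of 23. The arm's share of the regions in gene-holding windows was 2.42% of 949 at 5-fold (95% Wilson interval 1.62 to 3.61), against 1.40% of 12153 (1.20 to 1.62) as called. With a pileup of at least 20 it fell to 44 regions and 22.7% of the density. By construction a fold threshold is reached with fewer fragments where the background is low, and a pileup threshold takes no account of the background. Of these settings only the fold of 5 was planned, for the count of regions. The density at each of them, that at 5-fold included, was added after seeing the data.

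**Figure D2:**
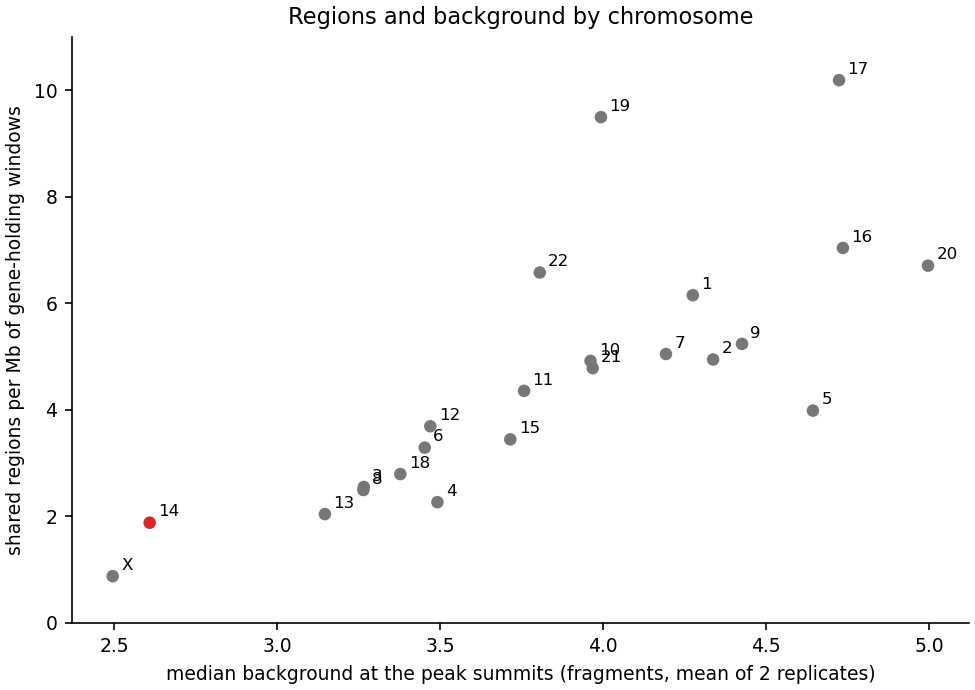
Shared regions per Mb of gene-holding windows against the median background at the peak summits in fragments (mean of the 2 replicates), 1 point per chromosome, chromosome 14 in red. Chromosomes 14 and X stand at the lower left with the lowest values on both axes.

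On the arm 171 of the 275 peaks called in replicate 1 overlapped a peak of replicate 2 (62.2%, 95% Wilson interval 56.3 to 67.7). In the other direction 171 of 357 did (47.9%, 42.8 to 53.1). The background of all chromosomes was 67.8% for replicate 1 and 52.2% for replicate 2. Split into 4 groups of equal size by −log10 q over each whole list, from weakest to strongest, sharing rose on the arm from 44.3% to 54.8%, 66.2% and 89.1% in replicate 1 and from 30.0% to 45.4%, 51.1% and 79.0% in replicate 2. Elsewhere the groups of replicate 1 shared 46.7%, 58.1%, 74.3% and 92.3%, and those of replicate 2 shared 27.2%, 40.98%, 56.3% and 84.4%. Each of these values from outside lies within the 95% Wilson interval of the matching group of the arm. The strongest group held 20% and 17.4% of the arm's peaks.

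Of the 170 shared regions 168 joined 1 peak of each replicate, and their median width was 406 bp. Across regions, as a description, the Spearman coefficient between replicates was 0.397 for fold enrichment on the arm and 0.622 outside it, and 0.731 and 0.812 for summit pileup. The absolute log2 ratio of fold enrichment between replicates had a median of 0.22 on the arm and 0.17 outside it, and 69 regions were higher in replicate 2. The lowest mean fold enrichment was 2.73 and the highest 7.01, and no peak of the arm reached 10-fold. Over chromosomes 1 to 22 and X 134 of 19015 peaks of replicate 1 and 157 of 24457 of replicate 2 did. On 13q 2 peaks did so in each replicate and on 15q 1. Such peaks are rare everywhere, so their absence is not read as a trait of the arm. The summits of the replicates were a median of 81.5 bp apart, within 100 bp in 96 of 170 regions.

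**Figure D3:**
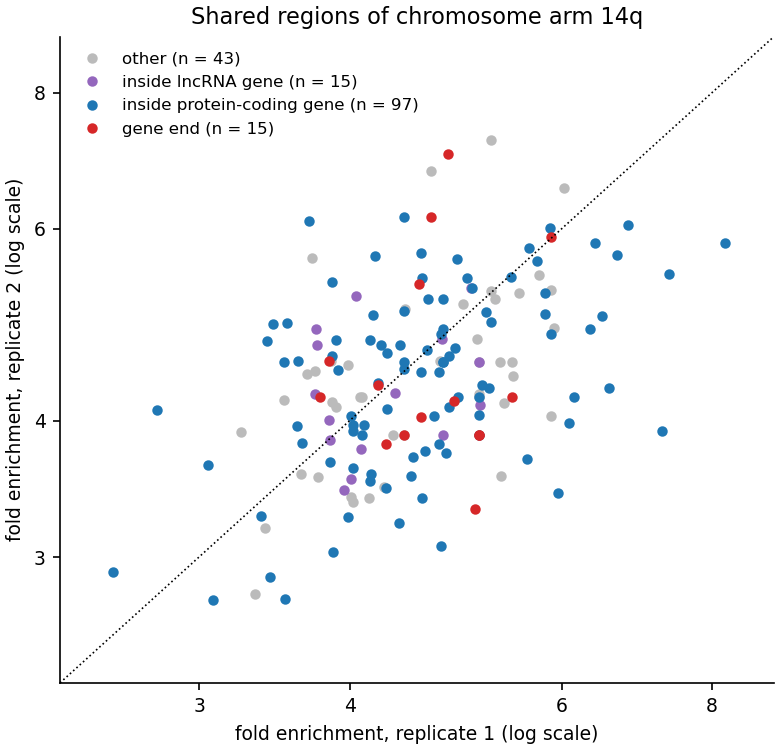
Fold enrichment at the summit in replicate 1 (horizontal) and replicate 2 (vertical), both on a log scale, for the 170 shared regions of 14q, coloured by where the summit lies (gene end, inside a protein-coding gene, inside a lncRNA gene, other); the dotted line marks equal values. The 15 summits at gene ends lie among the others, and none stands above 8.19 in either replicate.

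The strongest shared region, by mean percentile of fold enrichment among all shared regions, lay inside AKAP6, which encodes an anchoring protein for protein kinase A at the nuclear envelope (chr14:32484934-32485220, 8.19 in replicate 1 and 5.82 in replicate 2). Its pileups were 23 and 17 fragments over the lowest background of each list. The −log10 q there was 13.2 in replicate 1 and 7.07 in replicate 2, beside 12.9 and 11.4 in BAG5, so the order depends on the measure. The region inside BAG5, an HSP70 co-chaperone gene, followed with 6.81 and 6.04 (chr14:103558328-103558879) on a pileup of 28 fragments in each replicate, and that in the immunoglobulin heavy chain locus with 6.02 and 6.54 (chr14:105617264-105617776). Regions inside ACTN1, the gene of the actin cross-linker alpha-actinin, had 6.40 and 5.82 (chr14:68884367-68884925), inside SAMD4A 6.67 and 5.67, inside TRAF3, a brake on NF-kB signalling, 5.87 and 6.004, inside DGLUCY 7.37 and 5.46 and inside RAD51B 5.64 and 5.77. The others of the 10 strongest were at the ARID4A start, 5.88 and 5.90, and at chr14:31263510-31264013, in no protein-coding or long non-coding RNA gene, 5.24 and 7.24. Of these 10 the replicates were closest at ARID4A and furthest apart in AKAP6.

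Summits within 1 kb of a protein-coding gene end made up 8.82% of the arm's shared regions (15 of 170), beside 8.66% outside the arm, and those elsewhere inside such genes 57.1% beside 52.1%. Long non-coding RNA genes held 8.82% beside 8.59%. The same number, 15, lay within 1 kb of an annotated start of a protein-coding gene (8.82%), beside 6.76% of 12061 regions outside the arm that could be placed.

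Of the 603 protein-coding genes of the arm 23 were marked at an end, with 1 kb allowed (3.81%, 95% Wilson interval 2.55 to 5.66), where the background over 19974 genes was 7.53%. A further 59 had one inside only (9.78%, 7.66 to 12.4; background 16.9%), which made 82 in all (13.6%, 11.1 to 16.6; background 24.4%). Peaks without a shared region marked 86 more, and 435 genes (72.1%) had no peak of either replicate. All 3 shares lay below the background, as did those of 13q and 15q for gene ends (3.27% and 4.65%). The share of genes with any shared region was 22.02% on 13q (95% Wilson interval 17.9 to 26.8) and 22.1% on 15q (19.0 to 25.6). Both also lay below the background of 24.4%, but their intervals include it. The 23 genes rested on 16 distinct regions because neighbours can share 1, and the region lay at the outer end of the gene record on the side of the start in 16 genes and at the other end in 7.

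Of 10 chromatin genes of the arm, a list chosen with earlier results known, 3 were marked at an end, where the share was 3.81% over the arm and 7.53% over all chromosomes. ARID4A came first of all 23, PRMT5 had 4.57 in replicate 1 and 5.34 in replicate 2 (chr14:22929402-22929861), and CHD8, a chromatin remodeler gene, had 5.12 and 3.88 (chr14:21455976-21456450) at the outer end of its record, -18905 bp from its nearest start in the promoter table. MIDEAS, which encodes a subunit of a histone deacetylase complex, had 2 shared regions inside, the highest-ranked at 3.38 and 3.27. BAZ1A, DPF3, SETD3 and YY1 had peaks of 1 replicate alone, and SUPT16H and TOX4 had none.

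Divergent gene pairs accounted for several of the other genes marked on the start side. NRL, a photoreceptor transcription factor gene, and DCAF11, a ubiquitin ligase adaptor gene, shared 1 region of 4.83 in replicate 1 and 7.03 in replicate 2, on pileups of 20 and 31 fragments. ALDH6A1 and LIN52, a subunit of the DREAM and MuvB cell cycle complexes, shared 1 of 5.12 and 3.88. KLHL28 and TOGARAM1, a gene of ciliary tubulin control, shared 1 of 4.59 and 4.03, and RPS6KA5, a kinase of histone H3, and DGLUCY shared 1 of 3.85 and 4.54. The identical values at CHD8 and ALDH6A1, and at a region inside NPAS3, come from the same pileups of 14 and 11 fragments over the lowest background of each list, which leaves only steps of 1 fragment. Marked on that side without a divergent protein-coding partner were RBM25 (5.46 and 4.21), GLRX5 (4.88 and 4.17), SDR39U1 (4.29 and 3.81), MARK3 (3.92 and 4.46) and SIVA1, a pro-apoptotic gene (3.78 and 4.21). At the other end the neighbours AMN and CDC42BPB had 4.68 and 6.15, TNFAIP2, a gene induced by tumour necrosis factor, 4.22 and 4.31, MOK 4.44 and 3.88, FLVCR2 and ERG28 5.08 and 3.32, and KHNYN the region of SDR39U1. Several start-side regions also marked the start of a long non-coding RNA gene on the opposite strand. These were RBM25-AS1 at RBM25, SNHG10 at GLRX5, LOC101927045 at SDR39U1, PSMA3-AS1 at ARID4A, PRMT5-DT at PRMT5 and LOC124903283 at CHD8.

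With −log10 q of at least 5 in both lists 6 of the 23 genes were left, AMN, ARID4A, CDC42BPB, DCAF11, NRL and TNFAIP2, and with a fold enrichment of at least 5 only ARID4A. Leaving out replicate 1 raised the count of genes marked at an end to 53 and leaving out replicate 2 raised it to 37, because any peak of the remaining library then counted.

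RAD51B, a homologous recombination gene of 863 kb, held 8 shared regions, the most of any gene of the arm, with 15 peaks of replicate 1 and 14 of replicate 2. Its strongest region had 5.64 and 5.77 (chr14:68210821-68211268). A run of 4 lay within chr14:68172629-68232972: chr14:68172629-68173037 with 4.76 and 3.07, chr14:68191778-68192317 with 5.15 and 4.31, the strongest, and chr14:68232637-68232972 with 4.91 and 5.63. The other 4 lay further along the gene, with 5.19 and 5.03 at chr14:68458956-68459291, 3.55 and 4.92 at chr14:68576535-68576871, 4.40 and 3.22 at chr14:68620058-68620530 and 5.05 and 5.29 at chr14:68627015-68627584. The replicates were within 1 unit of fold enrichment of each other in most of the 8 and further apart in chr14:68172629-68173037, chr14:68576535-68576871 and chr14:68620058-68620530. A further 3 regions lay between RAD51B and ZFP36L1, an mRNA decay factor gene that itself had no peak, and 3 lay inside ACTN1.

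ITPK1, an inositol phosphate kinase gene of 179 kb, held 5 shared regions. One of 4.76 and 4.81 lay 487 bp from an annotated start within the gene, and the strongest, of 6.33 and 4.86, 2426 bp from the outer start. NRXN3, the longest gene of the arm and the gene of a synaptic adhesion protein, also held 5 over 1698 kb, its highest-ranked at 5.24 and 4.92. GPHN, ACIN1, ASB2, STON2 and PRKCH had 3 each, and DGLUCY 2 inside and 1 at its start. Per 100 kb these were 8.10 in ACIN1, 7.07 in ASB2, 2.79 in ITPK1, 0.927 in RAD51B and 0.294 in NRXN3. Of the 10 longest genes 7 had a shared region. MDGA2, RGS6 and SYNE2 had only peaks that did not coincide: 1 in each replicate, 1 in replicate 1, and 3 in replicate 2. Genes with a region inside had a median length of 102 kb, those marked at an end 37.6 kb and those with no peak 19.0 kb.

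HIF1A (chr14:61695513-61748258, plus strand) had no peak of either replicate inside it or within 1 kb of its ends. Within 1 Mb either side lay 8 peaks of replicate 1 and 15 of replicate 2. Of these, 6 and 7 peaks formed 6 shared regions, and the others overlapped no peak of the other replicate. The density was 2.92 per Mb beside 1.91 on the whole arm, but its place against the arm turned with the settings: it was 4.75 per Mb with 500 kb either side, 1.73 with 2 Mb either side, and 0.974 beside 1.08 on the arm with summits within 100 bp. All 6 lay before the gene and none after it. Beyond the last of them no peak was called in either replicate until chr14:63471347, 1.72 Mb past the end of HIF1A. This stretch of 1.81 Mb held 6 protein-coding genes: HIF1A, SNAPC1 (a subunit of the small nuclear RNA activating complex), SYT16, the potassium channel gene KCNH5, RHOJ and GPHB5. It was 1 of 8 stretches of at least that length on the arm with no peak. Another of them, chr14:59254693-61103769, of 1.85 Mb, lay before HIF1A, reached into the same window and held 16 protein-coding genes, among them MNAT1, TRMT5 and SLC38A6.

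Of the 6 regions 5 formed a run of 200.05 kb, singled out after its values were seen, that ended 32.7 kb before the HIF1A start. The first 3 lay inside PRKCH, the gene of the eta isoform of protein kinase C: chr14:61462724-61463068 had 3.87 in replicate 1 and 5.36 in replicate 2, chr14:61472262-61472620 had 3.46 and 4.91, and chr14:61525298-61525719 had 2.77 and 4.10. All 3 were higher in replicate 2. The region at chr14:61594382-61595369, inside the long non-coding RNA gene LINC03033, had 3.85 and 3.84, and the last, at chr14:61662573-61662772, had 4.03 and 3.37 on pileups of 13 and 11 fragments. The other region of the window, at chr14:61178681-61179069 before PRKCH, had 4.01 and 3.40. Peaks at 61609526 to 61609805 in replicate 1 (4.98) and 61609287 to 61609460 in replicate 2 (3.92) lay side by side without overlapping and were not counted as shared. On the arm 9 shared regions began a stretch of the same span with at least 5 shared regions, and on the other chromosomes 26.8% of shared regions did.

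In fold enrichment the 6 regions lay at mean percentiles between 26.1 and 63.0, beside a median of 62.5 on the arm and 49.7 over all chromosomes. The 3 regions in PRKCH had −log10 q of 7.29, 7.69 and 7.95 in replicate 2 but 3.43, 2.96 and 2.301 in replicate 1, where the list medians were 4.38 and 4.45. No region of the window was left when −log10 q or fold enrichment had to reach 5, or among the 5000 peaks of highest −log10 q. With 50% reciprocal overlap 3 regions were left and with summits within 100 bp 2. The background at the summits of the run was 2.47 to 6.59 fragments in replicate 1 and 2.56 to 7.06 in replicate 2, and the median over the peaks of the 61 to 62 Mb window was 3.52 and 3.59, above the 2.55 and 2.69 of the arm. The part of this background in the run was not tested.

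**Figure D4:**
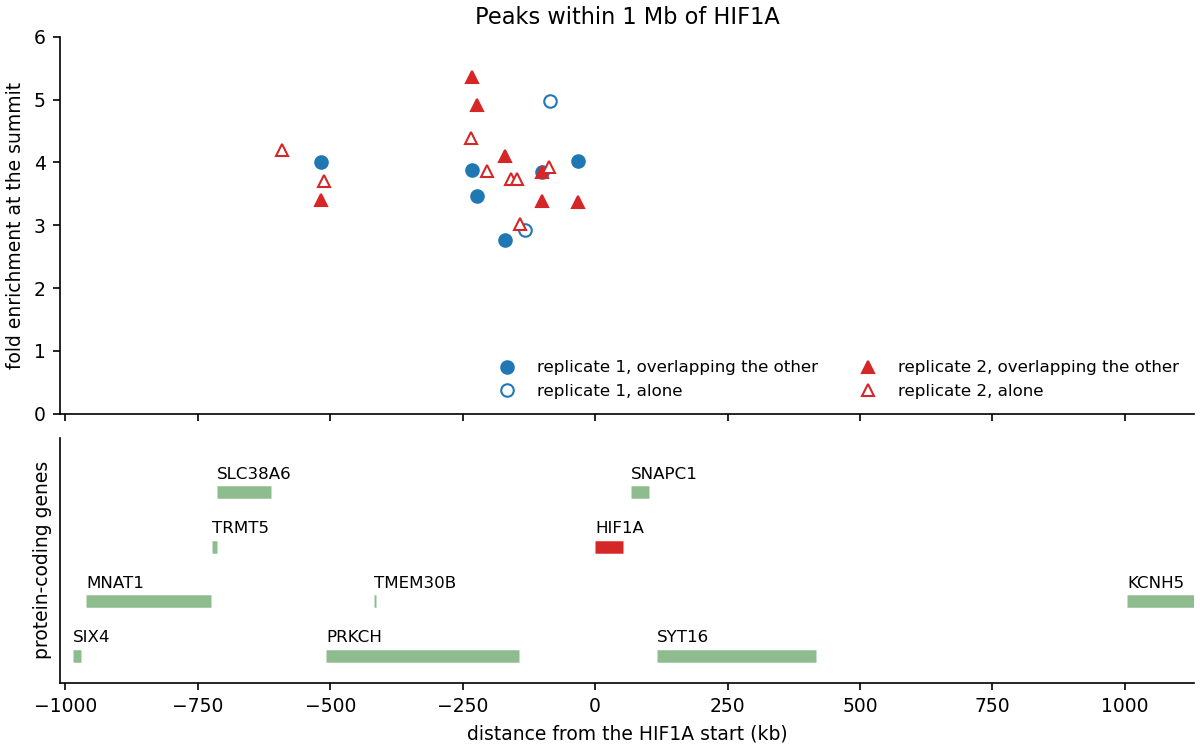
Upper panel: fold enrichment of each peak within 1 Mb of HIF1A against the distance of its summit from the HIF1A start in kb, filled where it overlaps a peak of the other replicate and open where it does not; lower panel: protein-coding genes drawn to scale, HIF1A in red. The peaks of both replicates lie before HIF1A and none lies over or beyond it within 1 Mb.

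The other members of a chosen list of hypoxia response genes of the arm had no peak either: EGLN3, the prolyl hydroxylase that HIF induces and that acts on HIF, PGF, PYGL, ERO1A, VASH1 and HSP90AA1. Thus 0 of 7 members held a shared region, where 13.6% of the protein-coding genes of the arm and 24.4% of all did. A shared region inside the long non-coding RNA gene EGLN3-AS1, -101119 bp from the EGLN3 start, had 4.78 and 4.76. A nearer one, chr14:33915221-33915461, lay 35742 bp from that start, beyond the other end of EGLN3, with 3.74 and 4.45. Of 8 proteasome genes PSMA6 had a region inside (3.87 and 4.58) and 7 had no peak. Of 4 AP-1 and immediate-early genes none had a shared region, and BATF had a peak of replicate 1 alone. The lineage transcription factor genes, which include NKX2-1, FOXA1, PAX9, OTX2 and BCL11B, had no peak in 12 of 12 cases. Of all protein-coding genes of the arm 72.1% had no peak.

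The same shares, 13.6% and 24.4%, stand beside the next counts. Of 15 cancer genes 4 held 14 shared regions in all, 8 of them in the long gene RAD51B. The others were GPHN (3 regions, the highest-ranked 6.48 and 5.00), TRAF3 (2) and TRIP11 (1, 4.50 and 3.56). AKT1, MAX, MLH3, NIN, GOLGA5, TCL1A and CCNB1IP1 had no peak, and KTN1, TSHR, DICER1 and PPP2R5C had a peak of 1 replicate. Among 9 DNA repair genes only RAD51B had shared regions, while PARP2, APEX1 and XRCC3 had a peak of replicate 2 alone. Ribosome and translation genes had none in 8, with a peak of replicate 2 at NOP9, RPS29 and EIF2B2. The peak at PARP2 overlaps the RNase P RNA gene RPPH1, and that in RPS29 lies at the RNA gene RN7SL1 within its record. Among 7 metabolism genes ALDH6A1 was marked at its start and MTHFD1, of folate metabolism, inside (4.59 and 5.41).

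Of all protein-coding genes of the arm 72.1% had no peak, with a median length of 19.0 kb. Beside this share, no peak was found at any listed member of several gene clusters, some of them far shorter, such as RNASE8 of 0.634 kb. These were 24 olfactory receptor genes, 13 genes of the RNase A family, 9 serpin genes around SERPINA1, the 7 genes of the imprinted domain from DLK1 to DIO3, both cardiac myosin genes and 127 T cell receptor segments. Between the genes SERPINA6 and SERPINA1 of the serpin cluster a shared region did lie, at chr14:94342318-94342807, with 5.37 in replicate 1 and 4.15 in replicate 2. Of 175 entries of the immunoglobulin heavy chain locus only that of the whole locus, IGH, held a region. The T cell receptor list counted segments only, with no entry of a whole locus. Along the T cell receptor delta locus, shared regions at chr14:22391182-22391475 and chr14:22432710-22433052 lay inside TRD-AS1. Where a gene has no peak, no enrichment there reached the cut-off of the deposited lists, which does not show that DEK was absent.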

How the data were processed

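The data are 2 peak lists, 1 per library. Per the submitters' processing notes, the build was GRCh38 (hg38) and the tools, listed without roles, were MACS2 2.2.7.1, Bowtie2 2.2.5, cutadapt 1.18, deepTools 3.5.1, ChIPseeker 1.32.1 and DiffBind 3.6.5. No source used here says whether peak calling had a control library. The authors deposited for each peak a fold enrichment (a linear ratio) at the summit, −log10 p and −log10 q there, a score and the summit offset. The members of the arm and the gene lists were chosen with earlier results of these data known.

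Peaks of chromosomes 1 to 22 and X were joined across replicates by at least 1 bp, and a region took the strongest peak of each replicate. Pileup k and background were solved from fold enrichment, as (k + 1) over (background + 1), and the Poisson p, matching 99.99% of replicate 1 and 99.996% of replicate 2 peaks at a tolerance of 5e-05. The lowest background was 1.93 and 2.09 fragments. This reading of the background assumes the peak caller's own formula and was checked on simulated data, as was the joining of peaks. The number of reads per library is unknown here, so the pileups, of 9 to 35 and 10 to 37 fragments on the arm, are the depth behind each value, and intervals cover counting error only.

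Genes came from the RefSeq table of GRCh38.p14 and starts and strands from its promoter table. Chromosome 8 was missing from that promoter table, and 15812 protein-coding genes had a start. A gene was marked at an end by a region within 1 kb of either annotated end, and otherwise inside. Gene-holding windows are 1 Mb windows with an annotated gene. Genes named are HIF1A and its neighbours within 1 Mb, the 23 genes marked at an end, the 10 strongest regions, the densest windows, the longest stretches without a region, the genes with most regions, the 10 longest genes and list members. Alternatives were other ways to join peaks, stricter thresholds, a 3 kb gene-end window, other window sizes and each replicate alone. No test was made, since there is 1 group. Python 3.11.15 with numpy 2.4.6, pandas 2.3.3, scipy 1.17.1 and matplotlib 3.10.9 was used.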

Additional observations from a re-analysis of the deposited data

How the results depend on the processing

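No paired analysis was possible because there is 1 group and no contrast. The number of shared regions on 14q depended on the threshold and on how peaks were joined, and the cause was not tested beyond what each setting removes by construction. With −log10 q of at least 5 there were 49 regions (0.551 per Mb), 6 genes marked at an end, 22 inside only, 46.2% of replicate 1 peaks shared and 0 regions per Mb around HIF1A. With a fold enrichment of at least 5 there were 23 regions (0.259 per Mb, 78.9% of the density over all chromosomes), 1 and 12 genes, 34.8% and 38.3% of peaks shared and 0 per Mb around HIF1A. With the 5000 strongest peaks there were 24 regions (0.270 per Mb), 3 and 13 genes, 43.6% of replicate 1 peaks shared and 0 per Mb around HIF1A. Summits within 100 bp gave 96 regions (1.08 per Mb), 15 genes at an end, 34.9% and 26.9% of peaks shared and 0.974 per Mb around HIF1A. Reciprocal overlap of 50% gave 43.3% and 33.3% of peaks shared and 1.46 per Mb around HIF1A. The settings chosen after seeing the data gave 91 regions (1.02 per Mb) at a fold of at least 4, and 44 regions and 22.7% of the density over all chromosomes at a pileup of at least 20. A 3 kb window gave 40 genes at an end, windows of 5 Mb left 0% without a shared region, and HIF1A windows of 500 kb and 2 Mb either side gave 4.75 and 1.73 regions per Mb.

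Each replicate alone gave 275 to 357 regions (3.09 to 4.02 per Mb, 48.4% to 49.0% of the density over all chromosomes), 37 to 53 genes at an end, 79 to 92 inside only, and 3.90 to 7.31 regions per Mb around HIF1A. The arm's density stayed under that over all chromosomes in each of the 10 settings tried for it, from 22.7% to 78.9%. At a fold of at least 5, however, it was above the densities of 13q and 15q. None of these 10 comparisons of density was planned. Pileups of about 15 fragments limit the precision of any single region.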

Other observations

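Long non-coding RNA genes of the arm had a shared region at an end in 13 of 565 cases (2.301%, beside 4.22% over all chromosomes), and 29 had one at an end or inside. LINC00519 was marked at both ends, its highest-ranked region at 4.05 in replicate 1 and 5.2004 in replicate 2, and TRD-AS1, which runs along the T cell receptor delta locus, held 2 inside (highest-ranked 5.12 and 4.53), while the receptor segments themselves had no peak. Of 19 transfer RNA genes only TRR-ACG1-3, an arginine tRNA gene beside the PRMT5 start, lay within 1 kb of a shared region. None of 99 miRNA and 75 small nucleolar RNA genes did. Over all chromosomes the shares were 6.998% of transfer RNA, 2.15% of miRNA and 2.17% of small nucleolar RNA genes. The genes of the RNase P RNA, RPPH1, and of the signal recognition particle RNA, RN7SL1, had a peak of replicate 2 alone at an end, and RN7SL2 and RN7SL3 had none. These are the same peaks as those listed at PARP2 and in RPS29.

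The region with the most CCAAT boxes, 7 in the 300-base window, was that of an inner start of TEDC1, a gene of tubulin in centrioles (chr14:105490926-105491271). Its fold enrichment was 5.44 in replicate 1 and 5.42 in replicate 2 on pileups of 15 and 16 fragments. Because the outer end of TEDC1 lies more than 1 kb away, the gene was counted as marked inside.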
